A study of Mus musculus with 35 samples.

Results

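Podocytes of Lmx1b C118F/lox mice were compared with podocytes of Lmx1b H77L/lox mice under DMSO, which sets a mutation in the LIM-B domain of the transcription factor LMX1B against a mutation in its LIM-A domain. The comparison used 12 of the 35 mice of the series, 6 of each line, chosen by the genotype and treatment in their column names, and each mouse was a library of its own. Of 33292 genes in the table, 10809 exceeded 1 TPM in all 6 mice of either line and were tested. TPM, the unit of level used here, is a read count divided by gene length and scaled so that each mouse sums to 1000000. All mice carried a lox allele of Lmx1b beside the knock-in allele, an rtTA transgene driven by a podocyte-specific promoter, a tetO::Cre transgene (LC-1) that doxycycline switches on, and the mT/mG reporter, whose cells turn green once Cre is active. Mice were 7 to 10 weeks old, drank doxycycline at 2 mg/ml, and were injected with DMSO, the solvent of the proteasome inhibitor bortezomib, every other day, and the kidneys were taken on day 7. Podocytes were released from glomeruli that had been loaded with magnetic beads, and green cells were sorted by FACS. The 6 Lmx1b +/lox mice under DMSO (labelled WT) and the bortezomib-treated mice of both lines, 5 C118F and 6 H77L at 0.3 μg/g, are used only for reference. The lox allele was removed in podocytes alone, only in cells where rtTA and Cre acted, and the rest of the kidney kept it. In those podocytes the knock-in allele is the remaining source of LMX1B. The study reports that both mutant proteins were degraded faster than wild-type LMX1B in HeLa cells. It also found fewer Lmx1b-positive podocytes under DMSO than under bortezomib in both lines. The amount of mutant protein left in the mice compared here is not known from these data.

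LMX1B is a LIM homeodomain transcription factor that podocytes need throughout life, and mutations in its gene cause nail-patella syndrome, in which some patients develop kidney disease. The homeodomain binds DNA. The LIM domains are zinc-binding folds that recruit partner proteins, foremost the adaptor LDB1, through which LIM transcription factors assemble larger complexes. Histidine and cysteine residues of a LIM domain hold its zinc ions, and H77L and C118F each replace such a residue. Podocytes wrap the glomerular capillaries with interlocking foot processes, joined by the slit diaphragm, and rarely divide.

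The reference codons of both positions are shown because the amino acid changes of the lines lie there. Per the study, each allele also carries a restriction site made together with the mutation, and a remaining FRT site. They lie on the minus strand of chromosome 2 of GRCm39 in exons 2 and 3 of Lmx1b, and are read here 5′ to 3′ from the unmutated reference, with the codon in capitals. Residue numbers follow the human protein, and in the mouse transcript used here the codons are numbers 83 and 124.

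Codon of the histidine that H77L replaces, LIM-A, chr2:33529584-33529610: gagtcgtcctggCACgaggagtgtttg

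Codon of the cysteine that C118F replaces, LIM-B, chr2:33459255-33459281: aagtgcagcggcTGCatggagaagatc

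Reads recovered from the steps of the TPM values put the depth at 16370267 to 23202563 reads per C118F mouse and 18342222 to 24115510 per H77L mouse. All 12 mice had Xist at 10.7 to 22.7 TPM and a sum of Y-linked genes of at most 0.755 TPM. The summed level of the podocyte genes was 21920 to 40470 TPM in C118F and 27213 to 36798 TPM in H77L mice, against 47095 to 65726 TPM in control mice. C118F mouse 1 stood apart (mice are numbered in the order of the deposited samples, and the numbers only name them). In it the renin gene Ren1 was at 2166 TPM, against at most 11.4 TPM in any H77L mouse. The endothelial genes Plvap and Pecam1 stood at 60.7 and 25.3 TPM there, against at most 4.28 and 1.41 TPM in any H77L mouse. The summed endothelial markers reached 233 TPM in the C118F group, with a median of 28.4, and 40.9 TPM in the H77L group, with a median of 24.4. Summed leukocyte markers were 13.3 to 122 TPM in C118F and 15.6 to 80.7 TPM in H77L mice. Cd74 reached 85.4 TPM in C118F and 45.6 TPM in H77L mice, Csf1r 11.9 and 21.3 TPM, and Cd68 15.1 and 18.3 TPM. Itgam, Cd3e, Ms4a1, S100a8 and S100a9 were at 0 in all 12 and Ptprc did not exceed 0.204 TPM. Of the tubule genes, Miox reached 86.9 TPM in C118F and 408 TPM in H77L mice, and Slc34a1 44.8 and 157 TPM. The highest values of Aqp1, Slc12a3 and Calb1 were in C118F mice. The part of these other cells in the results was not tested. In sorted populations, fewer cells of a type and less RNA per cell cannot be told apart.

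Lmx1b itself was expressed in every mouse. Its level was 37.4 TPM in the lowest C118F mouse, 104 in the median and 185 in the highest. In H77L mice it was 89.9, 119.8 and 139 TPM in the same order, and the control mice held 44.8 to 89.7 TPM. The C118F range therefore enclosed the H77L range, with the lowest value in C118F mouse 1. On the scale of log2(TPM + 1), C118F minus H77L was −0.38 ± 0.28 (SE), with a 95% interval of −0.99 to 0.23 and an unadjusted p of 0.204 in limma. Without C118F mouse 1 the difference was −0.08 to −0.13, depending on whether H77L mouse 6, the mouse least like its own line, was also left out. These reads add up the knock-in allele and whatever transcript the lox allele still gave. Ldb1, the LIM-binding adaptor, was at 25.8 to 40.1 TPM in C118F and 29.9 to 47.5 TPM in H77L mice, with medians of 36.3 and 34.4 TPM. Its difference was −0.04 ± 0.13 on the log2 scale, and the sign turned under several settings. All 7 tested genes of the LIM partner list, which also holds the SSBP proteins that stabilise LDB1, were alike within 2-fold by the test described next.

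No gene differed between the lines at an adjusted p under 0.05. The count was 0 of 10809 (0.0%) in limma, with a lowest adjusted p of 0.931. It was also 0 with limma-voom on the recovered reads. At an unadjusted p under 0.05 there were 416 genes (3.85%), 186 of them higher in C118F (1.72%) and 230 lower (2.13%). A missed threshold does not show likeness, so each gene was also tested against a margin, with 2 one-sided tests that the difference lay within 2-fold either way. Of the tested genes 10274 (95.1%) were alike within that margin at an adjusted p under 0.05, and 5290 (48.9%) were alike within 0.5 on the log2 scale. The remaining 535 genes (4.95%) were not shown to be alike within 2-fold. They had a median mean level of 12.3 TPM, against 24.3 TPM over all genes, and a median half-width of the 95% interval of 0.83 against 0.37. The median difference over all tested genes was −0.04, and 90% of the genes lay between −0.38 and 0.29 on the log2 scale. The share alike within 2-fold was 90.3% with a pseudocount of 0.1 and 90.8% with limma-voom. The margin was set on log2(TPM + 1), so for low genes it is wider than 2-fold in TPM. Of the tested genes 2963 had a mean under 10 TPM.

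**Figure D1:**
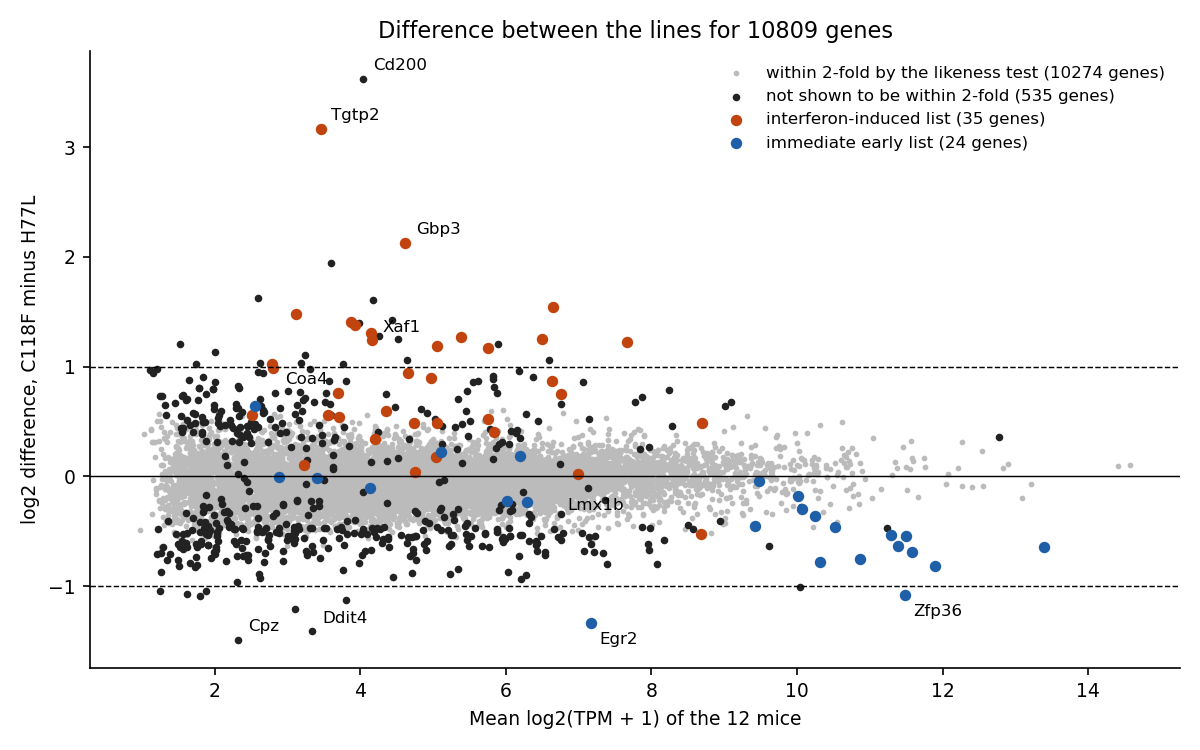
Difference between the lines for each of 10809 tested genes (y axis, log2(TPM + 1), C118F minus H77L) against its mean level (x axis, log2(TPM + 1)), with the interferon-induced list in red, the immediate early list in blue and dashed lines at 2-fold. Of the genes plotted 43 lie outside the dashed lines, and most red points lie above 0 and most blue points below it.

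The mice of the lines were nearly as alike across the lines as within them. Pearson's r across genes, which are not independent replicates, had a mean of 0.954 within C118F (15 pairs of mice, 0.920 to 0.973), 0.972 within H77L (15 pairs, 0.950 to 0.986) and 0.962 between the lines (36 pairs, 0.933 to 0.982). The same measure was 0.910 between C118F and control mice and 0.920 between H77L and control mice, so that each line lay closer to the other than to the controls. For 3 of 6 C118F mice and 2 of 6 H77L mice the most similar mouse belonged to the other line. The first principal component of the 12 mice took 29.1% of the variance and placed C118F mice at both ends, with C118F mouse 1 at 55.1 and C118F mouse 6 at −29.6. The second took 23.3% and set C118F mouse 5 at 30.0 and H77L mouse 6 at 32.9.

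**Figure D2:**
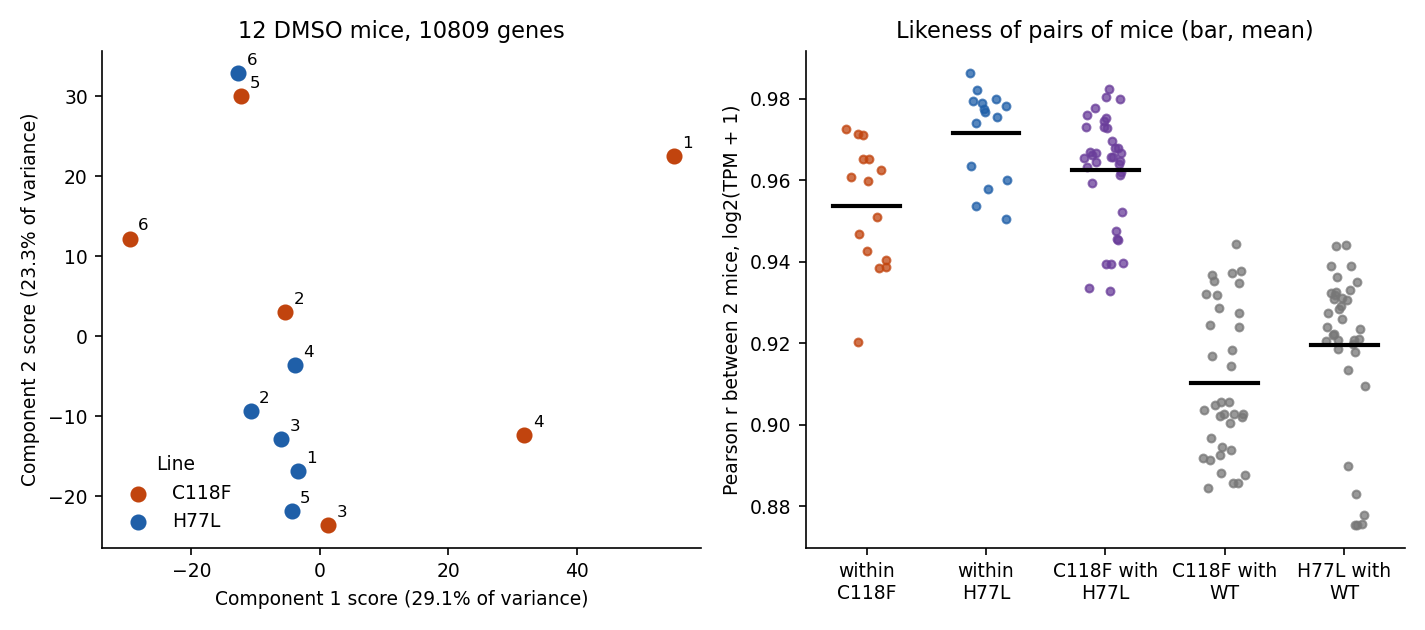
Principal components of the 12 mutant mice (left, PC1 and PC2 scores, 1 point a mouse, coloured by line) and Pearson's r of log2(TPM + 1) for every pair of mice, by kind of pair (right). The lines are intermixed on both components, and r between the lines (mean 0.962) lies between the r within C118F (mean 0.954) and within H77L (mean 0.972).

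The values of C118F mice were spread more widely than those of H77L mice. The SD between mice was larger in C118F for 8038 genes (74.4%), with a median SD of 0.33 in C118F, 0.22 in H77L and 0.25 in control mice on the log2 scale. This share was 67.6 to 80.2% when any single mouse was left out. The difference in spread was not tested, since genes of the same mice move together.

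Among the genes with the lowest p, the ones higher in C118F were of unlike function. Coa4, a mitochondrial assembly factor of cytochrome c oxidase on chromosome 7, was at 7.37, 7.97 and 11.1 TPM in the lowest, median and highest C118F mouse and at 3.69, 4.42 and 5.42 TPM in H77L mice. The groups did not overlap, and the difference of 0.76 ± 0.15 had an unadjusted p of 1.33e-04, the lowest of all genes. The controls, at 4.58 to 13.2 TPM, enclosed the C118F range and overlapped only the upper part of the H77L range. The H77L median lay below the lowest control. Xaf1, an interferon-inducible binding partner of the apoptosis inhibitor XIAP, was at 13.0 to 59.4 TPM against 8.16 to 16.2 TPM, a difference of 1.24 ± 0.29. The other 4 were Mcub, a subunit that restrains the mitochondrial calcium uniporter (1.03 ± 0.24), Rab5c, a GTPase of early endosomes (0.86 ± 0.23), Lpin3, a lipin phosphatase of lipid synthesis (0.74 ± 0.19), and 1700080G18Rik (0.98 ± 0.21), whose H77L values of 0 to 1.56 TPM did not reach its C118F values of 1.82 to 2.85 TPM.

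The genes lower in C118F with the lowest p were Zfp36, Cgnl1, Pex19, Gnai1, Socs3 and Golim4. Zfp36 encodes tristetraprolin, which binds AU-rich elements of cytokine mRNAs and speeds their decay. Its lowest, median and highest levels were 1125, 2222 and 2707 TPM in C118F and 2651, 4560.2 and 5151 TPM in H77L mice. Only the ends of the ranges overlapped, and the difference was −1.08 ± 0.22 (unadjusted p of 2.37e-04). Socs3, an inhibitor of JAK-STAT signalling, was at 302, 796 and 1241 TPM in C118F against 1239.9, 1522 and 1709 TPM in H77L mice, a difference of −1.01 ± 0.26. Its control values of 145 to 661 TPM lay below every H77L mouse.

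Cgnl1, the junction protein paracingulin, had 103 to 152 TPM in C118F and 155 to 211 TPM in H77L mice, without overlap (−0.53 ± 0.11). Gnai1, an inhibitory G protein subunit, had 16.0 to 32.6 TPM against 33.7 to 39.2 TPM, again without overlap (−0.65 ± 0.17). Control mice were at 155 to 278 TPM for Cgnl1, the level of H77L, and at 2.61 to 17.3 TPM for Gnai1, nearer to C118F. Pex19, which brings proteins to the peroxisomal membrane, and Golim4, a Golgi membrane protein, differed by −0.44 ± 0.10 and −0.47 ± 0.12 with overlapping ranges. All 4 genes of this group were alike within 2-fold, so their differences were small as well as below the threshold of the adjusted test.

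**Figure D3:**
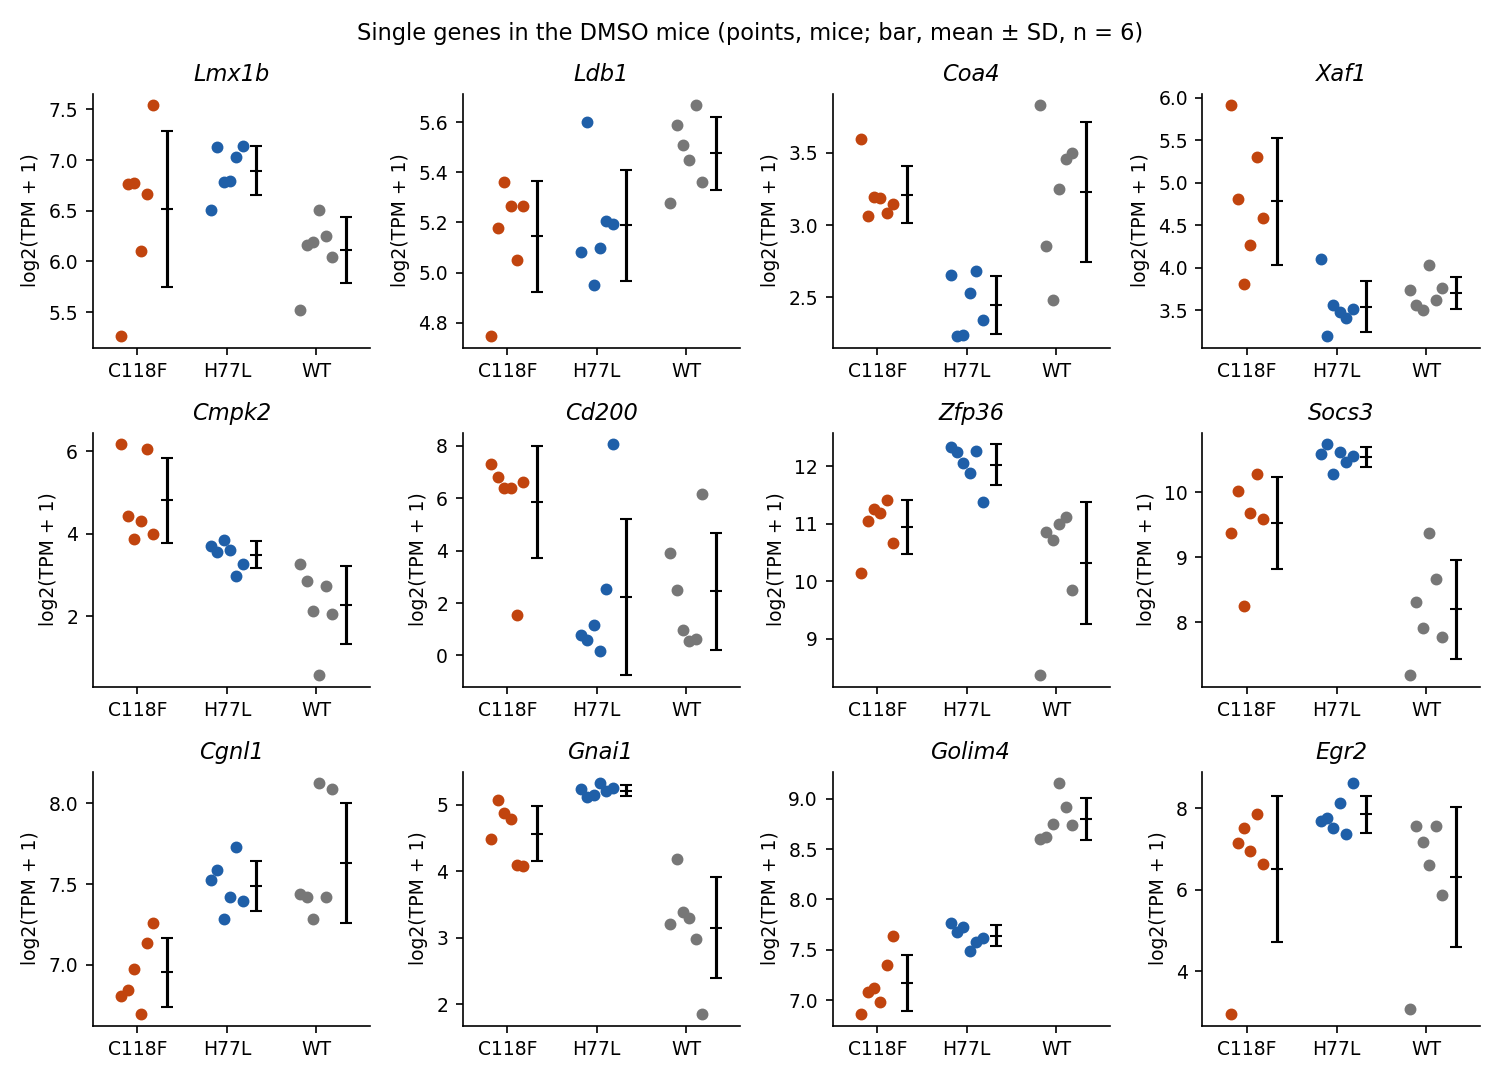
Level of 12 genes in each C118F, H77L and control mouse under DMSO (y axis, log2(TPM + 1)), with the mean and SD of the 6 mice of each group. Coa4, Cmpk2, Cgnl1 and Gnai1 show no overlap between the mutant lines, while Lmx1b and Ldb1 overlap throughout.

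Of all tested genes 16 (0.148%) had ranges that did not overlap between the lines. Among genes above 1 TPM in every mouse of both lines there were 13. The 7 higher in C118F (0.0648%) were Coa4, 1700080G18Rik, Gm4473, Cmpk2, Cops5, Pdrg1 and Hagh. Of these, 1700080G18Rik and Gm4473 passed the filter through C118F only. The 9 lower (0.0833%) were Cgnl1, Gnai1, Cdc5l, Jam2, Tcp11l1, Iqcc, AA986860, Ifnlr1 and Sf3a3. They include subunits of unrelated complexes, such as the COP9 signalosome (Cops5) and the splicing factor SF3A (Sf3a3), and they share no list beyond Cmpk2 among the interferon-induced genes.

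The largest differences came with ranges that overlapped between the lines. Cd200 and Tgtp2 passed the filter through C118F only, and Cpz and Ddit4 through H77L only. Such genes entered the test through the line where they were high. Cd200, a surface ligand that restrains myeloid cells, was at 1.89, 90.0 and 159 TPM in C118F and at 0.136, 0.984 and 267 TPM in H77L mice. Most C118F mice were high and most H77L mice low, but C118F mouse 5 was low and H77L mouse 6 was the highest of all 12. The difference of 3.62 ± 1.26 was the largest of the fit, with an unadjusted p of 0.0118, and became 4.49 without C118F mouse 5 and 4.79 without H77L mouse 6. In bortezomib-treated mice Cd200 did not exceed 1.90 TPM in C118F or 4.30 TPM in H77L, whereas control mice under DMSO ranged from 0.449 to 70.3 TPM.

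On the other side, Cpz, a secreted carboxypeptidase that binds Wnt proteins, had a difference of −1.49 ± 0.62, with C118F mice at 0 to 18.6 TPM around H77L mice at 2.65 to 10.4 TPM. Ddit4, a stress-induced inhibitor of mTORC1, differed by −1.41 ± 0.62, with 0.530 to 10.6 TPM against 5.13 to 82.3 TPM. Egr2, an immediate early transcription factor, was at 6.72 to 231 TPM in C118F and 164 to 391 TPM in H77L mice, a difference of −1.34 ± 0.64 that shrank to −0.63 without C118F mouse 1. Differences past 2-fold were found for 43 genes (0.398%), 32 higher in C118F (0.296%) and 11 lower (0.102%), and 31 of the 43 were past it also without C118F mouse 1 and H77L mouse 6. Of the 32, 17 belonged to the lists of interferon-induced, immunoproteasome or MHC class I genes and 13 to no list. Of the 11, 2 belonged to the immediate early list.

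Interferon-induced genes are switched on by STAT and IRF factors after type I or type II interferon binds its receptor, and encode antiviral effectors, guanylate-binding GTPases and the sensors of foreign RNA. Of 35 tested members of the list of such genes, 34 were higher in C118F and 1, Irf1, was lower (−0.52, unadjusted p of 0.117). At an unadjusted p under 0.05 there were 15 higher and 0 lower, a share to be read against 1.72% of all genes in the same direction. The median difference was 0.87, against −0.04 over all genes, and 8 of the 35 were alike within 2-fold, against 95.1% of all genes. None passed the adjusted test.

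Cmpk2, a mitochondrial nucleotide kinase induced by interferon, was at 13.7, 19.6 and 71.2 TPM in C118F and 6.93, 10.99 and 13.5 TPM in H77L mice, with no overlap and a difference of 1.31 ± 0.38. The values of C118F mice reached further above their median than those of H77L mice did. Gbp3, a guanylate-binding protein, was at 6.55, 43.4 and 445 TPM against 5.24, 9.35 and 25.5 TPM, a difference of 2.13 ± 0.82. Tgtp2, an interferon-inducible GTPase, was at 1.74, 18.6 and 637 TPM against 0.565, 1.55 and 27.3 TPM, a difference of 3.17 ± 1.13. Tgtp2 has the near-identical neighbour Tgtp1, and the Gbp genes resemble each other, so the division of reads among such copies is uncertain. Ifi27, a small membrane protein, differed by a smaller amount (0.49 ± 0.15). The ubiquitin-like modifier Isg15 (1.19) and its protease Usp18 (1.02) were also higher, as were Irf9 (0.94), a DNA-binding interferon regulatory factor, and Rsad2 (1.48), the antiviral enzyme viperin.

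The interferon pattern was uneven among the mice of both lines. The mean log2(TPM + 1) over the 35 genes was 6.69 in C118F mouse 1, 6.62 in mouse 5 and 5.39 in mouse 6, and 4.90, 4.58 and 4.23 in C118F mice 2, 4 and 3. In H77L mice it was 4.31, 4.72, 4.26, 4.48, 4.03 and 5.33, and in control mice 3.62 to 3.96. Thus 2 C118F mice stood above all others, H77L mouse 6 reached the level of C118F mouse 6, and every mutant mouse lay above every control mouse. The highest mouse on this measure is the one with the endothelial genes and Ren1, whose part in the result was not tested. Without C118F mouse 1 the median difference was 0.51 with 6 genes at an unadjusted p under 0.05, and without C118F mouse 5 it was 0.60 with 5 genes. The count was also 6 without H77L mouse 1, 3 or 5, was 9 without H77L mouse 4, and was 27 without C118F mouse 3. The median stayed above 0 in each of these fits, up to 1.12. Over all genes, the count in either direction was 331 of 10853 without C118F mouse 1 and 475 of 10861 without C118F mouse 5. It was 587 of 10873 without C118F mouse 3, and 351, 338, 358 and 297 without H77L mouse 1, 3, 4 and 5. With all mice it was 416 of 10809. The median SD of the listed genes was 1.04 in C118F and 0.38 in H77L mice.

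**Figure D4:**
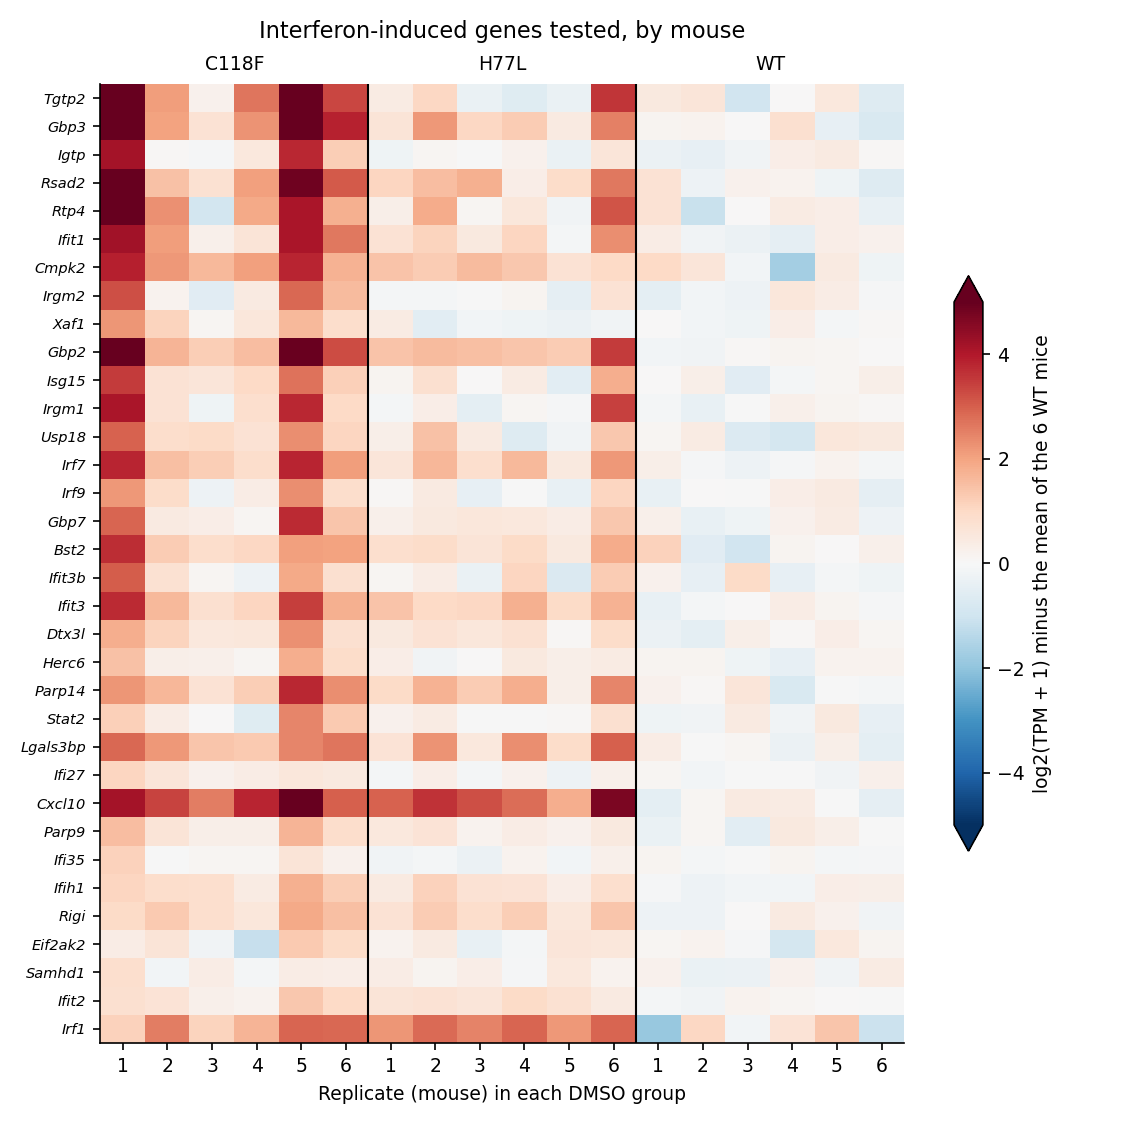
Level of 34 of the 35 tested interferon-induced genes (rows) in each DMSO-treated mouse (columns), as the log2(TPM + 1) difference from the mean of the control mice, with colours ending at the limits of the scale. C118F mice 1 and 5 are the most intense columns, with list means of 6.69 and 6.62, and the other mutant mice lie closer to each other.

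Promoter sequence is shown for these genes because interferon can act through a short element, the ISRE. Its core was searched as GAAA and GAAA with any 2 bases between them, on either strand, from 250 bases before to 50 bases after the transcription start in RefSeq promoters of GRCm38.p6. The motif was found in 17 of the 28 tested list members with a promoter in the table (60.7%), and in 1079 of 27025 promoters of all genes (3.99%). Of the list members looked at singly, Tgtp2 and Gbp3 held it, and Xaf1 and Cmpk2 did not have these letters in the window. Other members named above, such as Isg15, Usp18, Irf9 and Rsad2, were not looked at singly. The 10 bases of the motif are in capitals, and the sequence follows the strand of the gene, so Gbp3 shows the complement.

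Tgtp2, chr11:49064263-49064292, minus strand: tccaggaatcGAAACCGAAAcctactctga

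Gbp3, chr3:142559989-142560018, plus strand: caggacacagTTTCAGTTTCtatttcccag

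The immunoproteasome is the form of the proteasome that interferon induces, in which Psmb8, Psmb9 and Psmb10 replace the constitutive catalytic subunits and the PA28 activator (Psme1, Psme2) caps the core to favour peptides for antigen display. All 6 tested genes were higher in C118F, 5 of them at an unadjusted p under 0.05 (against 1.72% of all genes in that direction), with a median difference of 0.86. Psmb9 was at 8.68, 25.6 and 116 TPM in C118F and 6.57, 8.84 and 18.9 TPM in H77L mice (1.61 ± 0.50), and Psmb8 at 5.13, 21.4 and 156 TPM against 2.36, 4.81 and 14.7 TPM (1.95 ± 0.67). The ranges overlapped in both. The 33 genes of the constitutive 26S proteasome were close between the lines, with a median of 0.08 and all 33 alike within 2-fold. Psma5, a structural subunit of the core, had the lowest p of these (0.29 ± 0.11).

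MHC class I molecules carry such peptides to the cell surface after the TAP transporter has brought them into the endoplasmic reticulum. Of 18 tested genes 12 were higher in C118F and 6 lower, 4 at an unadjusted p under 0.05, all higher (against 1.72% of all genes), with a median of 0.16 and 11 alike within 2-fold (against 95.1% of all genes). The peptide transporter gene Tap1 (1.06) and the peptide editor gene Tapbpl (0.87) had larger differences than the class I heavy chains H2-K1 (0.15) and H2-D1 (−0.07), whose reads may be shared between similar H2 genes. H2-M3, a non-classical class I gene, was at 45.6 to 107 TPM against 35.8 to 63.4 TPM (0.60 ± 0.20). The median of this list was 0.08 without C118F mouse 5, 0.26 without C118F mouse 6 and 0.31 without H77L mouse 6.

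Immediate early genes respond within minutes to growth factors, stress and cell dissociation, without new protein synthesis. Of 24 tested members 21 were lower in C118F and 3 higher, with 4 lower at an unadjusted p under 0.05 (against 2.13% of all genes), a median difference of −0.41 and 9 alike within 2-fold (against 95.1% of all genes). Beside Zfp36 these were Btg2, an antiproliferative factor (−0.69), Egr1, a zinc finger transcription factor (−0.82), and Junb, an AP-1 subunit (−0.63). The mean log2(TPM + 1) over the list was 7.38 in C118F mouse 1 and 8.45 to 9.15 in the other C118F mice, against 8.52 to 9.16 in H77L mice. Without C118F mouse 1 the median was −0.15, and without that mouse and H77L mouse 6 it was −0.06 with 12 of 24 higher. The number at an unadjusted p under 0.05 and lower was 2 without H77L mouse 2 and 7 without C118F mouse 3, C118F mouse 5 or H77L mouse 6. Over all genes and both directions the number was 297 without H77L mouse 2. It was 587, 475 and 598 without C118F mouse 3, C118F mouse 5 and H77L mouse 6, against 416 with all mice.

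Of 42 tested genes of podocyte identity, 41 were alike within 2-fold, a share near the 95.1% of all genes. Higher in C118F were 7, against 40.8% of all genes, and 35 were lower, with a median of −0.20 against −0.04. Nphs1, which encodes the slit diaphragm protein nephrin, was at 113 to 169 TPM in C118F and 115 to 195 TPM in H77L mice. The transcription factor gene Wt1 was at 68.3 to 198 TPM against 115 to 201 TPM. These ranges overlapped over most of their width.

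The 3 at an unadjusted p under 0.05 were all lower in C118F, against 2.13% of all genes in that direction. Podxl, which encodes the anionic coat protein podocalyxin, differed by −0.52, and Mme, a membrane peptidase gene, by −0.22. Sema3g, a podocyte-secreted semaphorin, was at 67.1, 123 and 181 TPM against 139, 177 and 236 TPM (−0.59 ± 0.22). The list median was −0.07 without C118F mouse 1, and the count of such genes ran from 1 without C118F mouse 1, C118F mouse 2 or H77L mouse 2 to 12 without C118F mouse 6. C118F mouse 1 had the lowest value of the 6 C118F mice for many of these genes, for example Podxl (1204 TPM) and Wt1 (68.3 TPM). Over all genes, 958 of 10842 had an unadjusted p under 0.05 without C118F mouse 6, 30.9% of them higher in C118F. That count was 331 without C118F mouse 1, 419 without C118F mouse 2 and 297 without H77L mouse 2, against 416 with all mice.

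Structural genes had medians near that of all genes, but fewer of them than of all genes (95.1%) were shown to be alike. Of 34 actin and contractile genes 28 were alike within 2-fold, with a median of −0.08, and Myh10, a non-muscle myosin heavy chain, was the one with the lowest p (12.5 against 18.2 TPM in the medians, −0.71 ± 0.27). Of 47 extracellular matrix genes 37 were alike, with a median of −0.07 and 0 at an unadjusted p under 0.05. Loxl2, which crosslinks collagen, was at 109 to 361 TPM in C118F and 96.2 to 190.3 TPM in H77L mice (0.54 ± 0.26).

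Epithelial injury genes tended to higher values in C118F, with 18 of 21 higher (against 40.8% of all genes) and a median of 0.39. Of them 10 were alike (against 95.1% of all genes). The galectin gene Lgals1 alone had an unadjusted p under 0.05 (0.47 ± 0.22), against 1.72% of all genes in that direction. The list median was 0.24 without C118F mouse 1. Of 7 parietal epithelial markers, of the neighbouring cells of Bowman's capsule, 4 were tested. All 4 were lower, where 40.8% of all genes were higher, with a median of −0.34. The scaffold protein gene Akap12 (−0.63 ± 0.25) alone had an unadjusted p under 0.05, against 2.13% of all genes in that direction.

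The remaining lists lay near the median of all genes. Medians were 0.10 for 24 heat shock and unfolded protein response genes, −0.02 for 19 NF-kappaB and chemokine genes, −0.02 for 7 complement genes and −0.02 for 25 genes of TGF-beta and YAP signalling. They were −0.03 for 11 retinoic acid genes, 0.10 for 10 cell cycle genes and 0.05 for 32 nuclear genes of oxidative phosphorylation. The 8 mitochondrially encoded genes had a median of 0.13, and among them mt-Nd3 was at 0 in H77L mice 1 and 3 and at 27.4 to 62.4 TPM in the other 4, a pattern without a counterpart in C118F mice (25.1 to 46.6 TPM). None of these lists had more than 2 genes at an unadjusted p under 0.05. Of the marker lists of other cells, the medians were 0.78 for 3 leukocyte, 0.57 for 2 endothelial, 0.22 for 6 mesangial and −0.30 for 3 tubule genes. They had 0 genes at an unadjusted p under 0.05, and 0 erythroid markers passed the filter. Of the mesangial list, Des and Pdgfrb were expressed in all 12 mice and higher in both lines together than in controls (3.94 and 3.50). Ren1, Pecam1 and Plvap did not pass the filter. These medians therefore do not gauge the amount of other cells. With 1 mouse left out, the leukocyte median ran from 0.17 (C118F mouse 1) to 1.36 (H77L mouse 6), the endothelial one from 0.31 (C118F mouse 1) to 0.72 (C118F mouse 6), the mesangial one from 0.031 (C118F mouse 1) to 0.30 (C118F mouse 3) and the tubule one from −0.59 (H77L mouse 3) to −0.089 (H77L mouse 5). The sex-linked list held Xist alone (0.28).

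**Figure D5:**
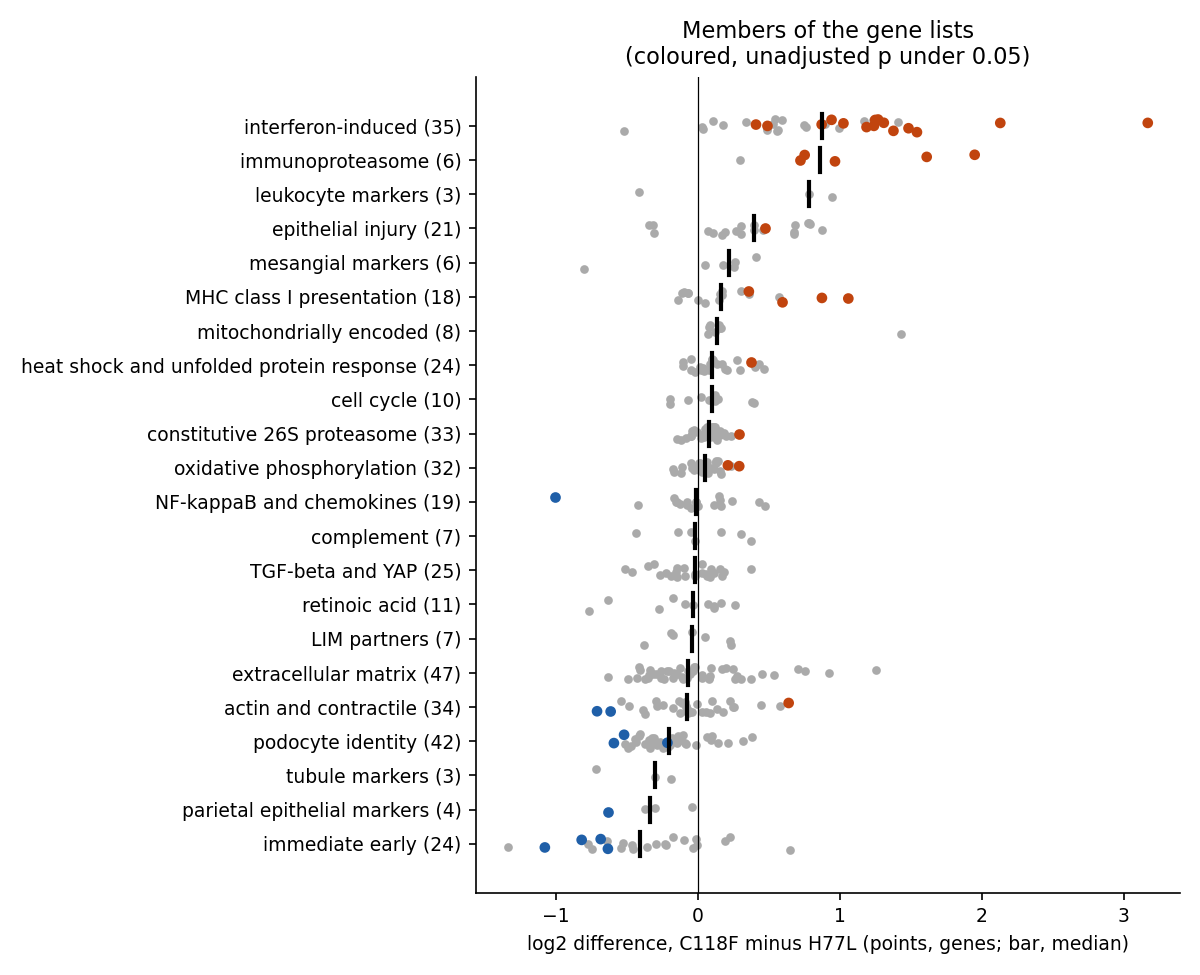
Difference between the lines (x axis, log2(TPM + 1), C118F minus H77L) for each tested member of the gene lists (rows), with the median of each list. The interferon-induced and immunoproteasome lists lie to the right, with medians of 0.87 and 0.86, the immediate early list lies to the left at −0.41, and most other medians lie close to 0.

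The 10 genes that the study followed by staining or quantitative PCR did not differ between the lines at the adjusted threshold. Those that were higher than in control mice in both lines included Lgals3, the galectin-3 gene, at 56.6, 372 and 580.1 TPM in C118F and 43.7, 191 and 849 TPM in H77L mice, against 0 to 36.9 TPM in controls. Its difference of 0.68 ± 0.66 had an interval of −0.73 to 2.09, so that likeness within 2-fold was not shown. Mustn1, a small nuclear protein of muscle and skeletal tissue, was at 372 to 896 TPM against 219 to 715 TPM (0.64 ± 0.28), and B2m, the light chain of MHC class I, at 4339 to 12738 TPM against 3819 to 20278 TPM (0.36 ± 0.38). Neither was shown to be alike within 2-fold. Leaving out 1 mouse moved Lgals3 from 0.29 (H77L mouse 5) to 1.14 (H77L mouse 6), B2m from 0.22 (H77L mouse 5) to 0.70 (H77L mouse 6) and Serping1, given next, from 0.21 (C118F mouse 1 or H77L mouse 1) to 0.59 (H77L mouse 6). Flna (filamin A, −0.30), Tagln (transgelin, −0.11), Cd63 (a tetraspanin, 0.39) and Serping1 (the C1 inhibitor, 0.37) were alike within it. So were the 3 that were low against controls, Cdkn1c (a cell cycle inhibitor, 0.14), Cldn5 (a tight junction claudin, 0.09) and Pak1 (a kinase of the actin cytoskeleton, −0.14). Cdkn1c was at 146 to 382 TPM in C118F and 76.4 to 285 TPM in H77L mice, against 4148 to 5610.1 TPM in controls, so the lines were close at levels far from those of the controls.

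The next group is the genes that set both mutant lines apart from control mice. They were taken from the mean of both lines against the controls (adjusted p under 0.001 and a log2 difference above 2 in limma), a selection that does not use the difference between the lines. Of 11095 genes, 195 (1.76%) were higher and 63 (0.568%) lower in the mutants. At an adjusted p under 0.05 and a log2 difference above 1 the shares were 6.97% and 3.36%. All 195 passed the filter of the direct comparison. Some did not pass the filter of a line against controls, for example Sprr1a, Sbsn, Gm11351 and Tnfrsf9 for H77L. Over those that did, the median difference from controls was 2.52 in C118F and 2.57 in H77L, so these medians need not cover the same genes. Of the 63, 43 passed it, and over these 43 the medians were −2.52 and −2.46. Both comparisons share the control mice, so these medians are given side by side only.

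Between the lines, the 195 genes had a median difference of 0.11, with a range of −0.93 to 0.92. None of the 195 was past 2-fold between the lines, and 121 were higher in C118F. At the looser cutoffs, 15 of 773 higher genes and 2 of the 268 lower genes tested directly were past 2-fold, against 0.398% of all genes. With a pseudocount of 0.1 and the strict cutoffs, 7 of 303 higher genes were. Of the 195, 133 (68.2%) were alike within 2-fold, against 95.1% of all genes, and 12 (6.15%) had an unadjusted p under 0.05, against 3.85%. Of the 12, 6 were higher in C118F and 6 lower. Jam2, a junctional adhesion molecule, had the lowest p of the group and was lower (−0.63), as was the potassium channel gene Kcnd3 (−0.48). On the higher side, Tnfrsf12a, the receptor of the cytokine TWEAK, differed by 0.44, Pdgfa, a growth factor of mesenchymal cells, by 0.70 and Ecm1, a secreted matrix protein, by 0.66. These 5 were picked with their values known. The 43 had a median of −0.13, a range of −0.76 to 0.43 and 32 (74.4%) alike, again against 95.1%. Mylk3, a myosin kinase gene, had the lowest difference (−0.76), at low levels in both lines (1.35 TPM in C118F and 2.75 TPM in H77L, means).

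Other mice of the same lines, treated with bortezomib, gave a comparison that shared no sample with this one. Their depth was uneven. C118F bortezomib mouse 2 had 5259609 reads, the next lowest of that group 14350698, and H77L bortezomib mice 17225785 to 20748038. The part of that C118F mouse in the counts was not tested. Of 10803 genes, 105 differed between the lines at an adjusted p under 0.05 (0.972%), 77 higher in C118F (0.713%) and 28 lower (0.259%), and 1558 had an unadjusted p under 0.05 (14.4%). The difference between the treatments was tested by the interaction of line and treatment, which passed for 0 of 11046 genes in limma, with a lowest adjusted p of 0.574 and 840 at an unadjusted p under 0.05 (7.60%). Of the 389 genes with an unadjusted p under 0.05 under DMSO that could be tested under bortezomib, 232 had the same sign there (59.6%), against 47.4% of all 10566 genes tested in both.

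Gene by gene, the differences under DMSO and bortezomib often had unlike sizes. The interferon-induced list, at 0.87 under DMSO, had a median of −0.03 under bortezomib with 13 of 31 higher, and the immunoproteasome list had −0.10 with 1 of 6 higher. Whether these medians differ between the treatments was not tested for the lists, and no single gene passed the interaction test. The epithelial injury list was at 0.39 under DMSO and 1.20 under bortezomib. Under bortezomib Lgals3 was higher in C118F by 3.07 (adjusted p of 0.00116 in limma), Mustn1 by 1.75 (0.00160), Lgals1 by 0.87 (0.0213) and Cd63 by 0.69 (0.0145), while Cdkn1c was lower at −1.14 (0.0266) and Cldn5 at −0.91 (0.0458). The bortezomib ranges of Lgals3, Mustn1 and Cd63 did not overlap between the lines, and those of Lgals1, Cdkn1c and Cldn5 overlapped at their ends. Under DMSO the differences of the 6 genes, in the order given, were 0.68, 0.64, 0.47, 0.39, 0.14 and 0.09.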

How the data were processed

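Poly(A) libraries of sorted podocytes, 1 per mouse, were sequenced from 1 end. Per the labels and the study's methods, the authors trimmed reads with Trim Galore 0.6.7, aligned them to GRCm39 with STAR, used Picard and counted reads per gene with featureCounts 1.6.3. The values the authors deposited are TPM, and how counts became TPM is not given in the sources used here. Use of strand in the counting is not given either, so a gene and its antisense partner cannot be told apart. No column was left unused.

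The log2(TPM + 1) values of the 12 mice were fitted with limma 3.58.1 (lmFit and eBayes with an intensity trend, R 4.3.3) for genes that exceeded 1 TPM in all 6 mice of either line. Adjustment followed Benjamini and Hochberg, and unadjusted p-values come from the same fit. Likeness used 2 one-sided tests with a margin of 1, adjusted in the same way. A fold change on this scale understates the change of low genes. The p-values measure the spread between mice. Whole reads, within 0.01 of a read, were recovered from the TPM steps for 21712 of 23943 genes with a value above 0 (90.7%). Intervals and floors of read counts were not used, since PCR reads are not independent molecules.

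The 25 gene lists come from general knowledge, and members and lists were chosen with earlier results of these data known. Gene symbols and the reference codons come from the GENCODE annotation of GRCm39. Named genes are Lmx1b and Ldb1, the 10 genes the study followed, the 6 with the lowest p in each direction, the 3 largest differences in each direction, 6 interferon-induced genes and 1 gene of each other list by lowest p. List members named beyond that were chosen after their values were seen. A few of the genes that this rule or the lists give are not reported here. Alternatives were another pseudocount, no filter, another scaling, a fit on all 35 mice, array weights, leaving out mice and limma-voom on recovered reads. The tests were checked on simulated data. Remaining steps used Python 3.11.15.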

Additional observations from a re-analysis of the deposited data

Results flagged for a closer look

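Groups of values were examined for a single mouse apart from the other 5, by Dixon's test at its 95% critical value. Such a mouse was found in 17 of 156 groups. Chance gives about 1 in 20 for independent values chosen without regard to their size. Here the same mice recur across the groups, and several genes were picked for a low p or a large difference. The count of 17 therefore cannot be judged against that rate. All values are on the log2(TPM + 1) scale unless stated. Of single genes, H77L mouse 6 stood apart for B2m (14.3), Cdkn1c (6.27), Cldn5 (4.70), Cd200 (8.06) and Cpz (1.87). C118F mouse 1 stood apart for Cd63 (11.2), Coa4 (3.60) and Egr2 (2.95), C118F mouse 5 for Pex19 (7.11) and Cd200 (1.53), and C118F mouse 3 for Ddit4 (0.61). Of the means over lists, H77L mouse 6 stood apart for actin and contractile genes (8.54), as did C118F mouse 2 (8.48). C118F mouse 5 stood apart for heat shock and unfolded protein response genes (8.45), C118F mouse 2 for cell cycle genes (4.48) and H77L mouse 5 for tubule markers (8.20). The mean r of H77L mouse 6 with its own line was 0.957, below that of the other H77L mice. In H77L mouse 6, Cd200 and B2m were high and Cdkn1c and Cldn5 low against the rest of the line.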

How the results depend on the processing

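No gene passed an adjusted p under 0.05 in any setting run, and the lowest adjusted p in any was 0.129, without C118F mouse 1 and H77L mouse 6. That setting and limma-voom were added after seeing the data. Genes at an unadjusted p under 0.05 numbered 655 without the filter, 717 in the fit on all 35 mice, and 297 to 958 with 1 mouse left out, the highest without C118F mouse 6. The higher share of these genes was 44.7% and became 56.2% with limma-voom (237 of 422). It was 53.6% with median-of-ratios scaling, 51.6% without C118F mouse 4 and 51.4% without C118F mouse 1 and H77L mouse 6. It was 35.1% in the fit on all 35 mice and 30.9% without C118F mouse 6. The median difference over all genes, −0.041, was −0.0066 with that scaling and 0.0050 with limma-voom. Genes alike within 2-fold numbered 19184 of 20843 (92.0%) without the filter, 9756 of 10809 (90.3%) with a pseudocount of 0.1 and 9798 of 10796 (90.8%) with limma-voom. They numbered 5290 with the margin of 0.5, and 10070 to 10392 with 1 mouse left out. The sex-linked list had a median of −0.032 without the filter. With an adjusted p under 0.05 and a log2 difference above 1 the genes apart from controls numbered 773 and 373, and with a pseudocount of 0.1 there were 303 higher. Signs turned for Ldb1 (0.034 with array weights, 0.0041 with limma-voom, 0.038 without both mice, −0.091 to 0.039 with 1 mouse left out), Cdkn1c (−0.15 with array weights, −0.20 without both, −0.14 to 0.26 with 1 left out), Cldn5 (−0.072, −0.15 and −0.20 to 0.21) and Tagln (0.078 with array weights, −0.28 to 0.11 with 1 left out). List medians near 0 also turned with 1 mouse left out, for NF-kappaB and chemokines (−0.11 to 0.14), complement (−0.061 to 0.065), retinoic acid (−0.14 to 0.038), cell cycle (−0.014 to 0.11), oxidative phosphorylation (−0.021 to 0.12), mitochondrially encoded genes (−0.031 to 0.25) and LIM partners (−0.091 to 0.039). All of these but cell cycle, and also TGF-beta and YAP, turned under at least 1 other setting. The cause was not tested. No paired analysis was possible because the mice carry individual identifiers and their replicate numbers follow the order of deposition. A covariate for sex-linked expression could not be run, since all 12 mice fell on 1 level. Low genes limit the comparison, as their intervals are widest.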

Other observations

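Genes near Lmx1b on chromosome 2, where the knock-in alleles of both lines lie, were examined as a group. The 111 tested genes within 5 Mb of Lmx1b had a median difference of −0.05 on the log2 scale between C118F and H77L, and 5 of them (4.50%) had an unadjusted p under 0.05 in limma, against 3.85% of all tested genes.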
